A study of Mus musculus with 32 samples.

Results

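The change of the wild type mouse cortex between embryonic stages E12.5 and E14.5 (days after conception) was described from single-cell libraries of the dorsal telencephalon, the part of the embryonic forebrain that forms the cerebral cortex. All libraries labelled wild type at these 2 stages were taken, 4 at E12.5 and 4 at E14.5, which is 8 of the 32 libraries of the series. Every embryo was on the C57BL/6J strain, and each library came from 1 embryo. Each stage had 2 males, M1 and M2, and 2 females, F1 and F2. The series also holds littermates heterozygous for Chd8, a chromatin remodeller gene, and libraries at E16.0 and E17.5. Those are used below only for values set beside the wild type ones. The medial part of the dorsal telencephalon was removed at dissection, per the labels' protocols. Cells were captured with droplet chemistry that counts the 3′ ends of transcripts by unique molecular identifiers (UMIs). For each library, the UMIs of each gene were summed over all barcodes with at least 1000 UMIs and 500 genes, which kept 36827 of 36938 barcodes. Levels are counts per 1000000 UMIs of the library (CPM), and per-library values are given in the order M1, M2, F1, F2.

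Cortical excitatory neurons are born from radial glia, progenitors that line the ventricle and express Sox2, Pax6 and Vim. Radial glia divide to renew themselves or to give intermediate progenitors, marked by Eomes, which divide again and yield neurons that migrate outward. The first neurons form the preplate, with Cajal-Retzius and subplate neurons, then come deep-layer neurons marked by Bcl11b and Tbr1, and later upper-layer neurons marked by Cux2. Progenitors themselves change with time: early genes such as Hmga2 and Lin28b are known to decline, and genes of later, glia-producing radial glia are known to appear.

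The tissue label was checked against genes of the dorsal telencephalon, all of which were detected in every library. The mean of Emx1, a dorsal transcription factor, was 211 CPM at E12.5 and 192 CPM at E14.5, and that of Tbr1, a factor of cortical neurons, was 99.9 and 179 CPM. Kept barcodes numbered 4347 to 5763 per library at E12.5 and 3180 to 5159 at E14.5. Their summed UMIs ranged from 49886503 to 66494678 at E12.5 and from 22651028 to 38741494 at E14.5. The median UMIs per barcode were 8763.5 to 10677 at E12.5 and 6163 to 8785 at E14.5; the stages were separate in summed UMIs and overlapped in this median. The median share of mitochondrial UMIs was 0.815% to 1.05% and 0.870% to 1.28%. Any pair of the 8 libraries shared 16 to 53 barcodes, at most 0.989% of the smaller library. On the first principal component of log2 CPM, which held 80.2% of the variance, the stages separated. On that component the E14.5 library F1 lay nearest the E12.5 libraries, at 27.3 against 43.7 to 52.7 in the others of its stage. It also stood apart on the second (8.92% of the variance), and it was the shallowest by summed UMIs. The libraries carry description codes of unstated meaning that differ between the stages, so stage and code cannot be told apart. Within E12.5, the code of M2 begins with c15 and those of M1, F1 and F2 with c10. Doublets were not removed, and free RNA was not modelled. Whether counting used strand is not stated, so reads of overlapping genes, such as Emx2 and Emx2os or Sox5 and its antisense genes, cannot be told apart, and the adult globins are near-identical copies whose counts are uncertain.

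Between E12.5 and E14.5 many genes of the cortex changed. Most genes of the axon and synapse lists rose, such as Chl1 and Grin2b, while all genes of the cell-cycle lists, most heterochronic genes such as Hmga2, and the embryonic globin Hbb-bh1 fell. Of 15015 genes tested, 4585 (30.5%) were called higher and 4274 (28.5%) lower at E14.5, by edgeR's quasi-likelihood test at a Benjamini-Hochberg adjusted p below 0.05. A change of at least 2-fold was called for 1795 genes (12%) upward and 1385 (9.22%) downward. The CPM ranges of the stages did not overlap for 7926 genes (52.8%), and the median log2 fold change of all genes tested was 0.003. Counts of list members below are read against these shares. In summed libraries, fewer cells of a type and less RNA per cell cannot be told apart.

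Some marker lists of other cells moved with stage, others gave counts near or under the shares over all genes, and their part in the other results was not tested. Of 12 erythroid genes tested, 1 was called higher and 6 lower at E14.5 (3 lower without E14.5 M1), and their summed level was 4927.3 to 14143 CPM at E12.5 and 888.5 to 7545.8 CPM at E14.5. Of 10 meningeal genes, 1 was higher and 9 lower, and the sum went from between 86.6 and 157.8 CPM to between 5.94 and 17.04 CPM. Col1a1, a fibroblast collagen, had 14.1 ± 3.77 CPM (SD, n = 4) at E12.5 and 1.17 ± 1.18 CPM at E14.5. Of 9 cortical hem and choroid plexus genes, 7 were lower and 0 higher (11 of 14 lower with DESeq2), with sums of 35.4 to 110.2 CPM and 34.7 to 73.3 CPM. Ttr, the main choroid plexus transcript, reached at most 0.526 CPM in any E12.5 library and was at 0 in all 4 E14.5 libraries. Lmx1a, a hem factor, had means of 1.57 and 0.337 CPM. Endothelial genes gave 0 higher and 6 lower of 12, which became 3 lower without E12.5 F1, E12.5 F2 or E14.5 M2 and 9 without E14.5 F1; their sums of 61.7 to 121.3 CPM and 26.1 to 111.9 CPM overlapped, and Cldn5 had means of 12.9 and 18.8 CPM. Pericyte genes gave 2 higher and 3 lower of 9, with sums of 32.2 to 56.8 CPM and 41.4 to 53.6 CPM, and Rgs5 had means of 8.50 and 19.2 CPM. Microglial genes gave 1 higher and 0 lower of 12, with sums of 20.8 to 35.8 CPM and 18.2 to 56.9 CPM, and C1qb had means of 4.18 and 5.70 CPM. Oligodendrocyte precursor genes gave 2 higher and 1 lower of 4, with sums of 2.3 to 3.3 CPM and 3.5 to 8.1 CPM, and Olig2 had means of 0.685 and 1.63 CPM. Dissociation response genes gave 0 higher and 6 lower of 15, with sums of 3600.8 to 4144.9 CPM and 3087.5 to 4588.5 CPM; Fos had means of 96.4 and 91.5 CPM and Hspa1a 7.55 and 4.66 CPM (called lower without E12.5 M2). Apart from Ttr at E14.5, no defining marker named here was at 0 in all libraries of a stage.

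Among well expressed genes (log2 CPM averaging 5 or more) that were called and had ranges not overlapping, the largest rises were in neuronal genes. The calls and separate ranges of these genes were thus set by the choice. Tiam2 (chr17:3326573-3531344, GRCm38), which encodes a Rac exchange factor, had 5.95, 3.49, 3.06 and 1.76 CPM at E12.5 and 66.3, 69.3, 63.7 and 64.0 CPM at E14.5. Every E14.5 library lay above every E12.5 library, and the log2 fold change was 4.17 (SE 0.292, adjusted p = 2.3e-06). Cdh13, an anchored cadherin, had 6.99, 4.79, 5.48 and 3.19 CPM at E12.5 and 112, 105, 48.6 and 78.9 CPM at E14.5, with F1 the lowest of the later stage. Cntn2 (chr1:132509427-132543256), an axonal adhesion protein of the immunoglobulin family, had 13.3, 10.9, 12.9 and 9.85 CPM, then 135, 125, 129 and 141 CPM, a mean 11.3 times as high. Fam49a rose by 3.32 on the log2 scale, Myt1l, a neuronal zinc finger factor, by 3.13, and Clmp, a cell adhesion molecule, by 3.12. In Myt1l and Clmp too the E14.5 library F1 was the lowest of its stage, at 91.3 and 54.9 CPM against at least 139 and 86.6 CPM in the others.

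Among well expressed genes chosen by the same rule, the largest falls were in Crabp2, Hmga2, Lrrn1 and 3 embryonic globins. Their calls and separate ranges were set by the choice as well. Crabp2 (chr3:87948666-87953376), a retinoic acid binding protein, had 144, 173, 171 and 216 CPM at E12.5 and 8.52, 9.80, 9.62 and 11.3 CPM at E14.5. The lowest E12.5 library was more than 10 times the highest E14.5 library, and Crabp2 fell by 4.21 on the log2 scale (SE 0.157, adjusted p = 1.07e-07). Hmga2 (chr10:120361275-120476469), a chromatin protein of early stem cells, went from 178, 232, 225 and 262 CPM to 13.2, 17.9, 27.6 and 16.5 CPM. Its ranges did not overlap, F1 was the highest at E14.5, and the log2 fold change was -3.63 (SE 0.230, adjusted p = 1.46e-06). Lrrn1 (chr6:107529768-107570214), a leucine-rich repeat membrane protein, went from 105, 125, 142 and 176 CPM to 17.2, 20.0, 19.2 and 11.1 CPM (log2 fold change -3.08, SE 0.203, adjusted p = 1.58e-06). The embryonic globins varied more between libraries. Hbb-bh1 had 199, 275, 175 and 97.9 CPM at E12.5 and 0.465, 2.73, 1.19 and 0.0851 CPM at E14.5 (log2 fold change -7.48, SE 0.666, adjusted p = 2.06e-05). Hba-x had means of 594 ± 212 and 22.6 ± 37.9 CPM (adjusted p = 0.0313), and its call was lost without any of E12.5 M1, M2 or F1 or E14.5 M1 or F1. Hbb-y had 5217 ± 2092 and 233 ± 358 CPM (adjusted p = 0.0252), and its call was lost without E12.5 F1, E14.5 M1 or E14.5 F1.

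**Figure D1:**
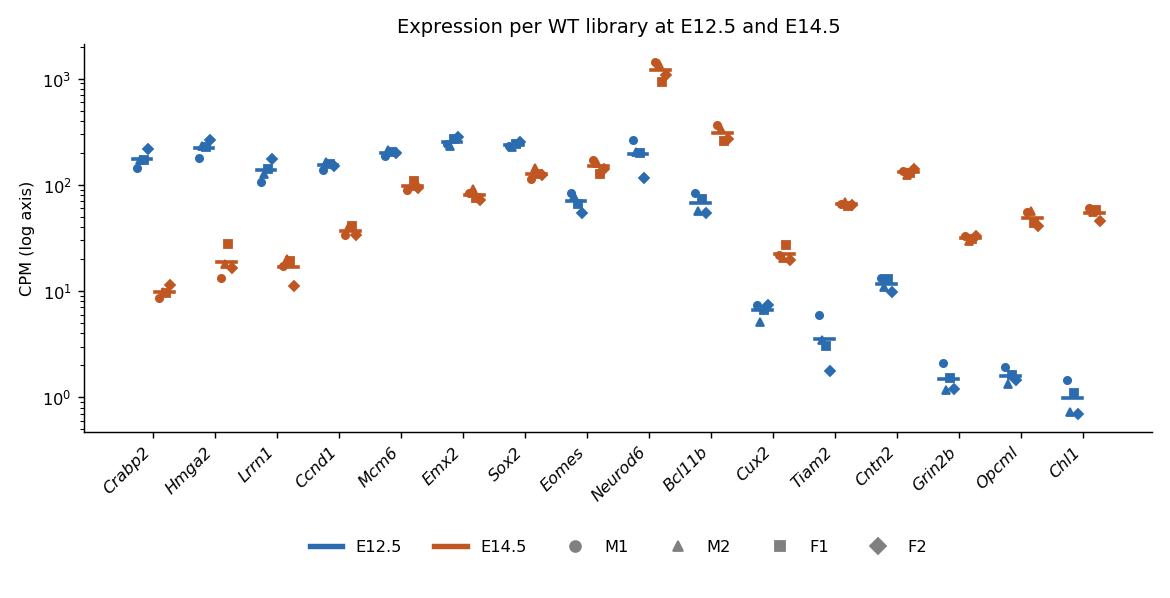
CPM of 16 genes in each wild type library on a log axis, with E12.5 in blue and E14.5 in orange; marker shapes give the embryo and bars the mean of 4. For all 16 genes the libraries of the stages do not overlap, from Crabp2 (mean 176 CPM at E12.5 and 9.81 CPM at E14.5) to Chl1 (0.987 and 54.7 CPM). Crabp2, Hmga2, Lrrn1, Tiam2 and Cntn2 were ranked by size among genes already required not to overlap.

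By amount of RNA, the largest gains were in Tuba1a, Tmsb4x, Malat1 and Tmsb10, and the largest losses in Hbb-y, Rps2, Rpl32 and Npm1. Tuba1a, a tubulin of growing neurons, had 4875, 4911, 4518 and 4311 CPM at E12.5 and 14130, 12450, 7496 and 11132 CPM at E14.5. The stages did not overlap, with F1 the lowest at E14.5 (log2 fold change 1.23, SE 0.152, adjusted p = 6.39e-05). Tmsb4x and Tmsb10, which bind actin monomers, rose from means of 6626 and 2890 CPM to 12961 and 5852 CPM, and Malat1, a nuclear non-coding RNA, from 6732 to 12838 CPM. Besides Hbb-y, the losses were in Rps2 (4764 to 3083 CPM), Rpl32 (5466 to 3999 CPM) and Npm1, a nucleolar protein (2772 to 1503 CPM). Of 83 genes of cytosolic ribosomal proteins, 0 were called higher and 39 lower, with a median log2 fold change of -0.28. That count was 23 without E14.5 M2. Their summed level was 218890 to 233420 CPM at E12.5, and 164680, 173350, 210060 and 202500 CPM at E14.5, where both males were lower than both females. The E14.5 males also carry other description codes (rm) than the females. Their median UMIs per barcode were higher, at 8785 and 8718 against 6512 and 6163. Sex, code and depth cannot be told apart there. Of 85 nuclear genes of oxidative phosphorylation, 9 were higher and 12 lower (median -0.08), which became 15 higher without E14.5 M1 and 20 lower without E14.5 F1.

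Genes of DNA replication and division fell together. All 30 genes of the list for the G1/S transition and replication licensing were called lower and 0 higher, with a median log2 fold change of -1.18. Ccnd1 (chr7:144929931-144939925), the cyclin that drives G1 progression, had 138, 163, 158 and 152 CPM at E12.5 and 33.3, 41.0, 40.7 and 33.4 CPM at E14.5. The lowest early library was over 3 times the highest late one (log2 fold change -2.09, SE 0.0980, adjusted p = 2.72e-07). Ccnd2, a second D-type cyclin, fell from 870 ± 67.2 to 453 ± 51.9 CPM. Mcm6, a subunit of the replicative helicase, had 188, 213, 206 and 198 CPM and then 90.1, 98.3, 108 and 93.3 CPM, a fall by 1.09 on the log2 scale (SE 0.0822, adjusted p = 2.66e-06). Mcm3, another subunit, fell from 141 ± 9.92 to 66.4 ± 8.74 CPM. All 25 genes of the G2 and mitosis list were called lower as well, with a median of -1.03. Mki67, a marker of cycling cells, went from 58.4 ± 3.11 to 35.2 ± 11.3 CPM, Top2a, a topoisomerase of dividing cells, from 246 ± 12.4 to 122 ± 34.7 CPM, and Ccnb1, the mitotic cyclin, from 326 ± 16.2 to 147 ± 33.3 CPM. In Mki67 and Top2a the E14.5 library F1 was the highest of its stage, at 51.1 and 172 CPM.

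Because the replication genes moved together, their promoters were read for the words TTTCCCGC and TTTGGCGC, which are the common forms of the site bound by E2F factors, regulators of S-phase genes. Windows ran from 250 bases before to 50 after each start site in the RefSeq promoter table (GRCm38.p6), and both strands were searched. The 10 genes searched were picked by hand from the G1/S and licensing list, so their share does not stand for the list. Of these, 9 had an entry, with 10 windows because Mcm7 has 2. A word lay in 5 of these 10 windows (50%), those of Cdc6, Mcm3, Mcm5, Mcm6 and Mcm7, against 514 of all 32851 windows (1.56%). The 250 bases before the start are shown for 3 of them to display where the words lie, with each word in capitals in the gene's own direction; GCGGGAAA and GCGCCAAA are the same words read on the other strand. A match is a description of letters and no evidence of binding.
Mcm6, chr1:128359706-128359955, minus strand: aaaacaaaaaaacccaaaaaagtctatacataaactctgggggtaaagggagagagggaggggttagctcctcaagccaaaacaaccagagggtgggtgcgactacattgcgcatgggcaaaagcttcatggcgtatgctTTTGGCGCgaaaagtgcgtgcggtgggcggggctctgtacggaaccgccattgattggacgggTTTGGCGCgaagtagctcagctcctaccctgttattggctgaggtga
Cdc6, chr11:98907901-98908150, plus strand: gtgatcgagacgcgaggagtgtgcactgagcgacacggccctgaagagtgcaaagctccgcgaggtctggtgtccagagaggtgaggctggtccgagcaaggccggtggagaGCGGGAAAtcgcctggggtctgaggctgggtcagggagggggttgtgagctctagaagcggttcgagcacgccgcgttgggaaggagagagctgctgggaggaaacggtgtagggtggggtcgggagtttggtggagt
Mcm5, chr8:75109259-75109508, plus strand: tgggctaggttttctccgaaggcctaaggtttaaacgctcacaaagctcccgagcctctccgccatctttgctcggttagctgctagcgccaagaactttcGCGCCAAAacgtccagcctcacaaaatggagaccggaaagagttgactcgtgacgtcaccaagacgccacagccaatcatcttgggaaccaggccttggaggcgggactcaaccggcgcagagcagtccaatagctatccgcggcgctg
The words of Mcm6 begin 110 and 47 bases before the start, that of Cdc6 138 and that of Mcm5 149 bases before it.

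Radial glia factors fell in the summed libraries. Of 17 genes of radial glia and neuroepithelium, 15 were lower, 1 higher and 1 not called, with a median of -0.86. Sox2, a progenitor transcription factor, had 231, 225, 241 and 252 CPM at E12.5 and 113, 143, 127 and 124 CPM at E14.5 (log2 fold change -0.95, SE 0.0832, adjusted p = 6.37e-06). The stages did not overlap. Pax6 went from 245 ± 9.69 to 169 ± 28.2 CPM, and Hes5, an effector of Notch signalling, from 213 ± 14.2 to 121 ± 19.5 CPM. Vim, the intermediate filament of radial glia, fell least of these, from 1043 ± 53.0 to 901 ± 52.0 CPM (log2 fold change -0.26, adjusted p = 0.0102), and its highest E14.5 library lay above its lowest E12.5 library. The exception, named after its value was seen, was Ddah1, an enzyme that degrades methylated arginine, which rose by 1.04 on the log2 scale.

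The heterochronic list holds genes known for high levels in early embryonic progenitors. Of 10 tested, 9 were lower and 0 higher, with a median of -0.87; Nr6a1 was not called. Besides Hmga2, Lin28b, which blocks maturation of let-7 microRNAs, had 5.04, 4.61, 6.01 and 6.33 CPM at E12.5 and 2.32, 2.07, 0.927 and 1.81 CPM at E14.5, with no overlap (log2 fold change -1.65, SE 0.225, adjusted p = 0.000116). Igf2bp1, an RNA-binding protein of embryonic cells, fell from 87.4 ± 7.24 to 49.6 ± 10.3 CPM. Prtg, an adhesion protein of early neuroepithelium, was at 1.43 ± 0.752 and 0.207 ± 0.171 CPM (log2 fold change -2.97, adjusted p = 0.00104).

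Notch pathway genes were mixed. Of 20 tested, 1 was higher, 8 lower and 11 not called, with a median of -0.42; without E14.5 F1, 2 were higher and 12 lower. The ligand Dll1 had 68.1, 54.2, 64.4 and 58.8 CPM at E12.5 and 32.7, 38.3, 23.7 and 22.6 CPM at E14.5, without overlap (log2 fold change -1.12, SE 0.144, adjusted p = 8.03e-05). The receptor Notch1 had means of 37.8 and 31.4 CPM (adjusted p = 0.0703), and its E14.5 library F1, at 41.6 CPM, was above all E12.5 libraries; without that library Notch1 was called lower (log2 fold change -0.48, adjusted p = 0.000213). With all 8 libraries Notch1 was also called lower with barcodes thinned to 3000 UMIs (-0.43, adjusted p = 0.0187) and under a replicate block (-0.34, adjusted p = 0.0455). Nrarp, a target and feedback inhibitor of the pathway, had means of 63.1 and 60.9 CPM (adjusted p = 0.355).

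Patterning genes, which give cortical areas their identity, fell more often than they rose. Of 30 tested, 18 were lower, 6 higher and 6 not called, with a median of -0.73. Emx2 (chr19:59458372-59465357), a transcription factor graded across the cortex, had 241, 233, 269 and 279 CPM at E12.5 and 83.4, 91.5, 74.7 and 72.0 CPM at E14.5. The stages were far apart (log2 fold change -1.72, SE 0.0859, adjusted p = 3.95e-07). Fgf15, a secreted growth factor, fell from 6.95 ± 0.854 to 1.00 ± 0.170 CPM, and Sfrp1, a secreted inhibitor of Wnt signalling, from 301 ± 16.9 to 176 ± 24.4 CPM. Lmo4, a transcriptional cofactor, had means of 66.7 and 93.7 CPM (adjusted p = 0.0567), with E14.5 F1 at 55.7 CPM below every other library; without it Lmo4 was called higher (log2 fold change 0.62, adjusted p = 5.91e-05), and so it was with all 8 libraries and a sex term (0.43, adjusted p = 0.0441). Among members named after their values were seen, Wnt8b, a Wnt ligand known from the medial edge of the cortex (log2 fold change -6.84), and the transcription factor Sp5 (-4.89) fell most. The hem genes fell beside them, as given above, and how far the dissection edge differed between stages was not tested. Bhlhe22 (2.37), a neuronal transcription factor, was among the 6 that rose.

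Genes of intermediate progenitors rose moderately. Of 16 tested, 9 were higher, 1 lower and 6 not called, with a median of 0.49. Eomes (chr9:118478212-118486132) had 83.3, 78.8, 65.3 and 54.6 CPM at E12.5 and 172, 159, 125 and 142 CPM at E14.5, a mean 2.12 times as high without overlap (log2 fold change 1.03, SE 0.131, adjusted p = 7.42e-05). Neurog2, a proneural factor, rose from 302 ± 61.8 to 449 ± 88.0 CPM (adjusted p = 0.0162), and Insm1, a zinc finger factor of delaminating progenitors, from 35.3 ± 6.84 to 77.0 ± 13.4 CPM. Btg2, an antiproliferative factor, had means of 141 and 162 CPM (adjusted p = 0.374); without E14.5 F1 it was called higher (log2 fold change 0.28, adjusted p = 0.0377).

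Genes of newborn neurons rose more strongly, with 16 of 18 higher, 0 lower and a median of 1.53. Neurod6, a factor of postmitotic cortical neurons, had 263, 202, 201 and 117 CPM at E12.5 and 1443, 1375, 935 and 1089 CPM at E14.5, a mean 6.19 times as high (log2 fold change 2.58, SE 0.222, adjusted p = 6.65e-06). Neurod2 rose from 111 ± 29.3 to 615 ± 183 CPM, Neurod1 from 57.8 ± 7.11 to 103 ± 21.5 CPM, and Dcx, a microtubule protein of migrating neurons, from 51.4 ± 8.29 to 235 ± 19.7 CPM. The lowest E14.5 library of each lay above the highest E12.5 library.

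Genes of both deep and upper layers rose, and the preplate genes divided. Of 16 deep-layer genes, 12 were higher and 2 lower (median 0.76). Bcl11b (chr12:107910403-108003602), a factor of subcerebral projection neurons, had 83.8, 56.3, 73.2 and 53.7 CPM at E12.5 and 363, 334, 259 and 267 CPM at E14.5 (log2 fold change 2.14, SE 0.147, adjusted p = 1.66e-06). Sox5, which controls the order of deep-layer neurons, rose from 33.1 ± 4.69 to 237 ± 61.9 CPM and Tbr1 from 99.9 ± 14.9 to 179 ± 14.2 CPM. Fezf2, a factor of subcerebral neurons also present in early progenitors, had means of 177 and 241 CPM (adjusted p = 0.0525), with E14.5 F1 at 165 CPM inside the E12.5 range; without it Fezf2 was called higher (log2 fold change 0.53, adjusted p = 0.00164). With all 8 libraries, Fezf2 was also called higher under the 10 CPM filter, with barcodes of at least 3000 UMIs, with barcodes thinned to 3000 UMIs and with library sums thinned to the lowest total (adjusted p = 0.04676 to 0.04955). Of 17 upper-layer genes, 13 were higher and 1 lower (median 1.53). Cux2, a homeobox factor, had 7.33, 5.13, 6.59 and 7.44 CPM at E12.5 and 21.9, 20.3, 27.3 and 19.4 CPM at E14.5, with no overlap (log2 fold change 1.70, SE 0.148, adjusted p = 6.08e-06). Pou3f2 rose from 25.8 ± 6.50 to 89.0 ± 15.2 CPM and Mef2c, a transcription factor of maturing neurons, from 15.5 ± 2.77 to 114 ± 30.5 CPM.

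Of 19 Cajal-Retzius and preplate genes, 3 were higher, 9 lower and 7 not called, with a median of -0.64, while the ranges of their summed level overlapped, at 303.4 to 368.6 CPM and 294.6 to 364.6 CPM. Ebf3, an early neuronal factor, fell from 3.26 ± 0.217 to 1.92 ± 0.335 CPM. Reln, the secreted protein that guides migrating neurons, rose from 13.0 ± 3.25 to 32.6 ± 10.3 CPM. The LIM factors Lhx1 (means 2.42 and 1.60 CPM) and Lhx5 (2.17 and 3.17 CPM) were not called (adjusted p = 0.0755 and 0.134); Lhx1 was called lower without E14.5 M2 (log2 fold change -0.89), and with barcodes thinned to 3000 UMIs (-1.5994), a sex term or a spread shared by all 16 wild type libraries, and Lhx5 higher without E14.5 F2 (0.67). Of 9 subplate genes, 4 were higher and 3 lower (median -0.13). The median turned to 0.83 with DESeq2 and 0.71 with no filter on low counts (12 genes each), and to 0.73 with a spread shared by all 16 wild type libraries (11 genes), while the counts of calls were 4 and 3 in each. Lpar1, a lysophosphatidic acid receptor, fell from 56.6 ± 3.24 to 41.5 ± 6.21 CPM in all barcodes. In the gates set out below, Lpar1 rose from 68.8 to 108 CPM in the progenitor gate (log2 fold change 0.58, adjusted p = 0.000138) and was at 5.02 and 2.16 CPM in the neuron gate (-1.24, adjusted p = 0.0341). Nr4a2 (means 25.8 and 24.5 CPM, adjusted p = 0.524) and Nxph4 (22.3 and 20.7 CPM, adjusted p = 0.363) were not called in all barcodes. Neither was called in the progenitor gate (adjusted p = 0.108 and 0.931). In the neuron gate Nr4a2 rose from 6.63 to 16.6 CPM (log2 fold change 1.32, adjusted p = 0.0196). Nxph4 fell there from 109 to 27.0 CPM (-2.02, adjusted p = 2.51e-08).

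Genes for axons, the cytoskeleton and synapses rose in large numbers. In the axon list, 24 of 35 were higher and 4 lower (median 1.30). Chl1 (chr6:103510586-103750211), an L1-family adhesion protein, had 1.44, 0.722, 1.09 and 0.692 CPM at E12.5 and 60.1, 55.0, 58.4 and 45.3 CPM at E14.5 (log2 fold change 5.74, SE 0.208, adjusted p = 1.07e-07). The receptors Robo2 and Nrp1 rose from 23.4 ± 5.72 to 96.7 ± 3.34 CPM and from 20.6 ± 3.29 to 94.7 ± 21.1 CPM, the guidance cue Sema3c from 6.94 ± 0.870 to 22.3 ± 2.23 CPM, and Gap43, a growth cone protein, from 89.0 ± 17.3 to 318 ± 74.6 CPM. Of 21 neuronal cytoskeleton genes, 15 were higher and 2 lower (median 1.05). Mapt, which encodes the axonal protein tau, rose by 2.89 on the log2 scale, Stmn2 by 1.48, Map2 by 1.11 and Tubb3 by 1.09. The 2 that fell, named after their values were seen, were the tubulins Tuba1b and Tubb4b.

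Of 34 synapse and excitability genes, 31 were higher and 1 lower (median 1.99). Grin2b, a subunit of the NMDA glutamate receptor, had 2.11, 1.16, 1.52 and 1.19 CPM at E12.5 and 32.8, 29.8, 31.1 and 32.7 CPM at E14.5, a mean 21.1 times as high and nearly the same in all 4 later libraries (log2 fold change 4.35, SE 0.174, adjusted p = 1.36e-07). Gria2, an AMPA receptor subunit, rose from 47.0 ± 7.73 to 220.4 ± 14.54 CPM, Snap25, a vesicle fusion protein, from 13.7 ± 2.55 to 66.7 ± 7.94 CPM and Syt1, its calcium sensor partner, from 5.98 ± 0.704 to 26.8 ± 5.56 CPM. The gene that fell, Camk2a (log2 fold change -1.03), was named after its value was seen. Of 20 neuronal RNA-binding and splicing genes, 14 were higher and 4 lower (median 1.37). Rbfox1, a neuronal splicing factor, had 2.38, 1.22, 1.73 and 0.857 CPM and then 72.5, 65.7, 22.7 and 40.1 CPM (log2 fold change 4.97, adjusted p = 9.72e-06), with F1 the lowest at E14.5. Celf2 and Elavl4 rose by 1.33 and 0.99 on the log2 scale, and Ptbp1, a repressor of neuronal exons, fell by 0.73. Among 16 genes of the BAF chromatin remodelling complex, whose subunits are exchanged when progenitors become neurons, 8 were higher and 3 lower (median 0.25). The neuronal subunits Actl6b, Dpf1 and Dpf3 rose by 2.31, 0.90 and 2.99 on the log2 scale, and the progenitor subunit Actl6a fell by 0.46.

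Genes of ventral interneurons, which migrate into the cortex from the ganglionic eminences, were higher in 16 of 24 cases and lower in 4 (median 1.88). With genes kept only at 10 CPM or more in 4 libraries, 3 of 7 were higher. Lhx6, a factor of medial eminence interneurons, had 0.0176, 0.140, 0.160 and 0.180 CPM at E12.5 and 10.1, 8.16, 4.37 and 6.41 CPM at E14.5 (log2 fold change 5.76, SE 0.398, adjusted p = 1.77e-06). The E14.5 library F1 was the lowest of its stage for Lhx6, Gad2, Dlx1 and Dlx2. Gad2, which makes the transmitter GABA, had means of 1.46 and 10.9 CPM (adjusted p = 0.00409). Dlx1 had means of 3.33 and 10.5 CPM (adjusted p = 0.0406), and its call was lost without E12.5 M2 or F1 or E14.5 M1, M2 or F2, and with DESeq2 (adjusted p = 0.05299). With all 8 libraries the Dlx1 call was also lost with no filter on low counts (adjusted p = 0.131), barcodes of at least 3000 UMIs (0.0551), barcodes thinned to 3000 UMIs (0.0791) and library sums thinned to the lowest total (0.0614). Dlx2 had means of 7.12 and 17.2 CPM (adjusted p = 0.0681) and was called higher without E14.5 F1 (log2 fold change 1.48) and under a replicate block (1.36).

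Genes of glial competence and late radial glia rose in 16 of 27 cases and fell in 4 (median 0.65). Nfib, a nuclear factor that promotes gliogenesis, rose from 419 ± 64.3 to 1228 ± 193 CPM without overlap. Zbtb20 had 60.6, 40.2, 50.6 and 40.5 CPM at E12.5 and 133, 144, 145 and 119 CPM at E14.5 (log2 fold change 1.45, SE 0.125, adjusted p = 5.83e-06). Ptprz1, a receptor phosphatase of radial glia, rose from 34.3 ± 3.52 to 71.9 ± 11.6 CPM. Nfia rose from 240.0 ± 51.7 to 383 ± 93.4 CPM (adjusted p = 0.0147; 0.05503 with barcodes thinned to 3000 UMIs), with F1 at 523 CPM far above the other E14.5 libraries. In the gates set out below, Nfia was called in neither. It was at 176 and 216 CPM in the progenitor gate (adjusted p = 0.405) and 531 and 532 CPM in the neuron gate (0.994). Nfib, Ptprz1 and Zbtb20 rose in both gates. Their log2 fold changes were 0.66, 1.22 and 2.24 in the progenitor gate and 1.15, 2.62 and 0.47 in the neuron gate. In glycolysis and hypoxia, 13 of 26 genes were lower and 8 higher (median -0.37). Ldha, which makes lactate, fell from 1212 ± 107 to 641 ± 99.8 CPM and the glucose transporter Slc2a1 from 45.7 ± 5.06 to 27.5 ± 3.83 CPM. Pgk1 varied between libraries, from 41.7 to 129 CPM at E12.5 and from 14.1 to 67.7 CPM at E14.5 (adjusted p = 0.0403), and its call was lost without E12.5 M1 or F1 or E14.5 M1, M2 or F2. With all 8 libraries the Pgk1 call was also lost with no filter on low counts (adjusted p = 0.121), barcodes thinned to 3000 UMIs (0.0877) and library sums thinned to the lowest total (0.0719). Bnip3 had means of 37.6 and 37.7 CPM (adjusted p = 0.728). Among the adult globins, Hbb-bs had means of 511 and 1764 CPM (adjusted p = 0.0237; the call was lost without any of E12.5 F1 or F2 or E14.5 M1, M2 or F1, and with no filter on low counts at 0.0846), Hba-a1 1969 and 1164 CPM (adjusted p = 0.301; called lower under a replicate block), and Hbb-bt 550 and 820 CPM (adjusted p = 0.472; called higher without E14.5 F2).

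**Figure D2:**
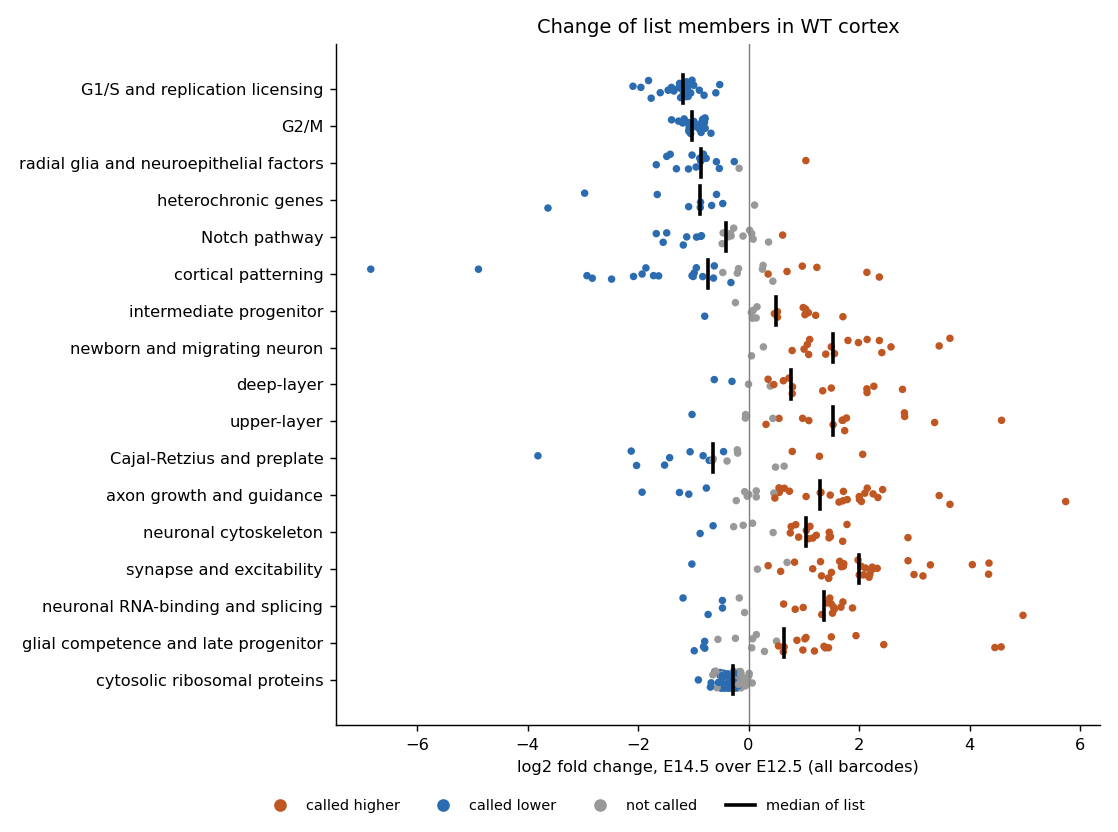
Log2 fold change (E14.5 over E12.5, all barcodes) of each tested member of 17 gene lists, with called genes in orange (higher) or blue (lower), genes not called in grey, and a black bar at the list median. The 2 cell-cycle lists lie wholly below 0 (medians -1.18 and -1.03), and the synapse list has its median at 1.99.

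To give values within barcodes chosen by marker content, 2 gates were set on 6 progenitor genes (Vim, Sox2, Pax6, Hes1, Hes5 and Sox9) and 6 neuron genes (Tubb3, Dcx, Stmn2, Stmn3, Mapt and Gap43). Each barcode with at least 3000 UMIs was thinned to 3000. The progenitor gate asked for at least 3 UMIs of its own genes and the neuron gate for at least 6, both with at most 1 UMI of the other set and 0 of the ventral genes Dlx1, Dlx2, Dlx5, Dlx6os1 and Gad2. A gate is a range of barcodes and not a cell type, and its content differed between stages. After thinning, the median UMIs of the progenitor gate's own genes were 7 to 8 per E12.5 library and 9 to 13 per E14.5 library. Those of the neuron gate's own genes were 21 to 26 and 17 to 21. The part of these shifts in the values within the gates was not tested. Of 13597 barcodes in the progenitor gate, 6523 lay at its edge, as did 3302 of 8501 in the neuron gate. At E12.5 no barcode fell below 3000 UMIs, and at E14.5 723 did. Erythroid UMIs, which these cells should lack, were present in 43.9% to 91.9% of progenitor gate barcodes at E12.5 and 22.3% to 70.7% at E14.5, and in 44.4% to 91.6% and 25.6% to 70.8% of neuron gate barcodes.

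The balance of the gates moved from progenitor to neuron content. The progenitor gate held 48.2%, 47.5%, 49.7% and 53.0% of barcodes at E12.5 and 16.8%, 22.0%, 28.7% and 19.8% at E14.5. The neuron gate held 9.42%, 7.36%, 7.98% and 6.21%, then 48.0%, 43.6%, 41.2% and 45.9%. Neither pair of ranges overlapped. The mean share in the progenitor gate was 49.6% ± 2.45 (SD, n = 4) and 21.8% ± 5.03, in the neuron gate 7.74% ± 1.33 and 44.7% ± 2.93, and in neither gate 42.7% ± 1.83 and 33.5% ± 2.27. Each of the 3 differences had p = 0.0286 in a two-sided exact permutation test, which is the smallest p that 4 against 4 libraries allow, and 0.0286 after Benjamini-Hochberg adjustment over the 3. Without thinning, the progenitor gate held 15.8% ± 2.91 and 9.80% ± 3.40, ranges that overlapped (exact permutation p = 0.0857), and the neuron gate 1.97% and 29.9% (exact permutation p = 0.0286).

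**Figure D3:**
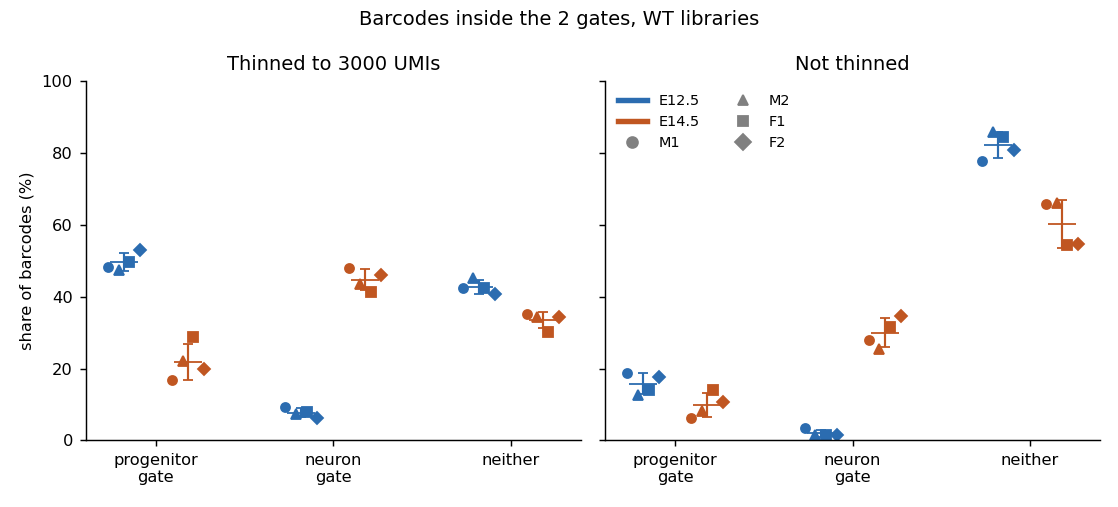
Share of barcodes in the progenitor gate, the neuron gate and neither, per wild type library (marker shapes), with the mean and SD of 4, after thinning to 3000 UMIs (left) and without thinning (right). After thinning, the progenitor gate lies between 47.5% and 53.0% at E12.5 and between 16.8% and 28.7% at E14.5, and the neuron gate shows the opposite order.

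Within the progenitor gate, Crabp2, Hmga2 and Lrrn1 fell, and genes of glial competence and of intermediate progenitors rose. The UMIs of the gated barcodes were summed per library and tested in the same way, leaving the gate genes out of the results. Of 13166 genes tested, 2398 (18.2%) were higher and 2098 (15.9%) lower, with a median of 0.006. Crabp2 fell from a mean of 140 to 15.1 CPM (log2 fold change -3.28, adjusted p = 1.25e-07), Hmga2 from 283 to 52.3 CPM (-2.51, adjusted p = 2.5e-08) and Lrrn1 from 170 to 12.3 CPM (-3.88, adjusted p = 1.43e-06). Chst2, a sulfotransferase, fell from 68.3 to 10.5 CPM. Atf3, a stress-response factor, fell from 53.3 to 5.85 CPM (adjusted p = 0.0101), and in all barcodes it had 52.6, 13.0, 53.8 and 44.9 CPM at E12.5. Dissociation response genes gave 0 higher and 4 lower of 14 in the gate (median -0.42). Of 10 heterochronic genes, 8 were lower in the gate (median -0.60), with Lin28b going from 5.05 to 0.396 CPM. Of 30 patterning genes, 16 were lower and 6 higher (median -0.51), and Emx2 fell from 301 to 169.9 CPM. Meningeal UMIs were present in 3.21% to 5.72% of the gate's barcodes at E12.5 and 0.425% to 1.91% at E14.5. In the same gate, 4 of 7 hem genes were lower and 0 higher, and 5 of 9 pericyte genes were higher and 0 lower, with Rgs5 going from 13.4 to 59.4 CPM (adjusted p = 0.0098). The part of these cells in the gate's changes was not tested.

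The rises in the progenitor gate included genes of later radial glia, of the intermediate progenitor path and of neurons. Newborn neuron genes outside the gate set gave 9 higher and 2 lower of 16 (median 0.69), and synapse genes 13 and 3 of 27 (median 0.54). Axon genes gave 9 higher and 9 lower of 31, and cytoskeleton genes outside the gate set 4 and 6 of 17. Neurod2 went from 4.04 to 33.9 CPM and Neurod6 from 7.99 to 52.9 CPM. The part of neuronal RNA in the gate's rises was not tested. Eomes went from 10.8 to 97.9 CPM (log2 fold change 3.11, adjusted p = 3.78e-06), Neurog2 from 213 to 612 CPM and Insm1 from 11.03 to 52.9 CPM, and 12 of 16 intermediate progenitor genes were higher and 1 lower (median 0.97). The share of the gate's barcodes with any UMI of the intermediate progenitor markers was 41.1% to 50.4% at E12.5 and 53.4% to 64.4% at E14.5. Of 25 glial competence genes, 20 were higher and 0 lower (median 1.24). Mfge8, a secreted protein of radial glia, rose from 36.3 to 229 CPM (log2 fold change 2.58, adjusted p = 4.89e-09) and Aldoc, an aldolase of astroglia, from 112.5 to 659.9 CPM (2.48, adjusted p = 1.32e-06). Fam210b, a mitochondrial protein, rose from 33.6 to 192 CPM and Acot1, an acyl-CoA thioesterase, from 33.3 to 182 CPM. Members named after their values were seen include Bcan (6.23) and Tnc (5.53), matrix proteins of late radial glia, and Fabp7 (2.01). Of 18 Notch genes, 5 were higher and 2 lower (median 0.27; 4 lower without E12.5 M2), with Notch1 rising from 43.1 to 78.4 CPM and Nrarp from 78.1 to 141 CPM. Neither was called in all barcodes. Of 12 radial glia genes outside the gate set, 4 were higher and 2 lower (median 0.16; 5 lower without E14.5 F1).

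Cell-cycle genes gave other counts in each gate. In the progenitor gate, 18 of 30 G1/S genes were lower and 0 higher (median -0.28), led by Ccnd1, which went from 184 to 88.5 CPM. Mcm6 was at 237 and 226 CPM there (adjusted p = 0.118). Of 25 G2 and mitosis genes, 8 were higher and 0 lower (median 0.11), a count of 3 to 5 without any of E12.5 M1, M2, F1 or F2 or E14.5 M1 or M2. In the neuron gate, 27 of 29 G1/S genes and all 25 G2 and mitosis genes were lower (medians -1.44 and -2.42). Progenitor content moved with them: neuron gate barcodes had a median of 1 UMI of the progenitor gate genes in each E12.5 library and 0 in each E14.5 library, and 60.3% to 65.4% and 44.3% to 52.4% of them had an intermediate progenitor UMI. Of 12 radial glia genes outside the gate set, 10 were lower in the neuron gate and 0 higher (median -1.29). The part of this content in the cell-cycle values was not tested. Ccnb1 was at 349 and 359.6 CPM in the progenitor gate (adjusted p = 0.797), and fell from 133 to 19.4 CPM in the neuron gate (adjusted p = 2.06e-06). Pclaf, a PCNA-binding protein, fell in both, from 778 to 536 CPM and from 254 to 27.2 CPM. The difference between the gates was not tested.

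Within the neuron gate, 1961 of 11520 genes (17%) were higher and 1913 (16.6%) lower, with a median of 0.028. Opcml (chr9:27790775-28925410), a neuronal cell adhesion protein, rose from a mean of 2.92 to 99.0 CPM (log2 fold change 5.06, adjusted p = 1.54e-09) and Ldb2, a LIM-domain binding cofactor, from 2.61 to 62.0 CPM (4.50, adjusted p = 6.89e-09). Chl1 rose from 6.98 to 99.9 CPM, Nav2, a neuronal navigator protein, from 4.51 to 62.2 CPM and Hbb-bs from 23.2 to 388 CPM. Calb2, a calcium-binding protein of early-born neurons, fell from 125 to 11.9 CPM (-3.40, adjusted p = 2.46e-08), Ebf1 from 101 to 8.47 CPM (-3.56, adjusted p = 6.54e-06) and Crabp2 from 273 to 5.14 CPM; at E12.5 each library had more Crabp2 CPM in this gate than in the progenitor gate. Hbb-y fell from 301 to 14.47 CPM. Among the other adult globins, Hbb-bt rose from 20.0 to 127 CPM in this gate (log2 fold change 2.65, adjusted p = 0.0064), and Hba-a1 was at 55.2 and 163 CPM (1.54, adjusted p = 0.0666). Of 17 Cajal-Retzius and preplate genes, 12 were lower and 0 higher (median -1.47). Of 16 intermediate progenitor genes, 11 were lower and 1 higher (median -1.07), against 12 higher and 1 lower in the progenitor gate; Eomes went from 175 to 62.3 CPM.

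Layer genes were mostly higher in the neuron gate as well. Of 16 deep-layer genes, 9 were higher and 3 lower (median 0.60), and of 17 upper-layer genes 11 were higher and 2 lower (median 0.59). Cux2 went from 12.5 to 25.1 CPM (log2 fold change 0.98, adjusted p = 0.00614), Sox5 from 74.5 to 429 CPM and Bcl11b from 312 to 546 CPM, whereas Tbr1 fell from 542 to 328 CPM (-0.73, adjusted p = 0.000242). Newborn neuron genes outside the gate set gave 8 higher and 3 lower of 16 in the neuron gate (median 0.31). Neurod2 and Neurod6 rose there by 0.72 and 0.88 on the log2 scale. Neurod1, which rose in all barcodes, fell there from 233 to 135 CPM (-0.80, adjusted p = 8.98e-06). Synapse genes gave 19 higher and 5 lower of 33 (median 0.53), and Grin2b went from 12.3 to 60.4 CPM. Axon genes gave 12 higher and 6 lower of 33 (median 0.20). Of 17 cytoskeleton genes outside the gate set, 3 were higher and 4 lower (median 0.03), against 15 higher of 21 in all barcodes. Ribosomal protein genes gave 7 higher and 2 lower of 83 in the neuron gate (median 0.03; 3 or 4 higher without any 1 of the E12.5 libraries or E14.5 M2, and 6 higher and 6 lower with a median of -0.07 without E14.5 F1; the median was -0.05 without E14.5 F2), and 0 higher and 26 lower in the progenitor gate (median -0.24; 14 without E14.5 M2 and 46 without E14.5 F2).

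**Figure D4:**
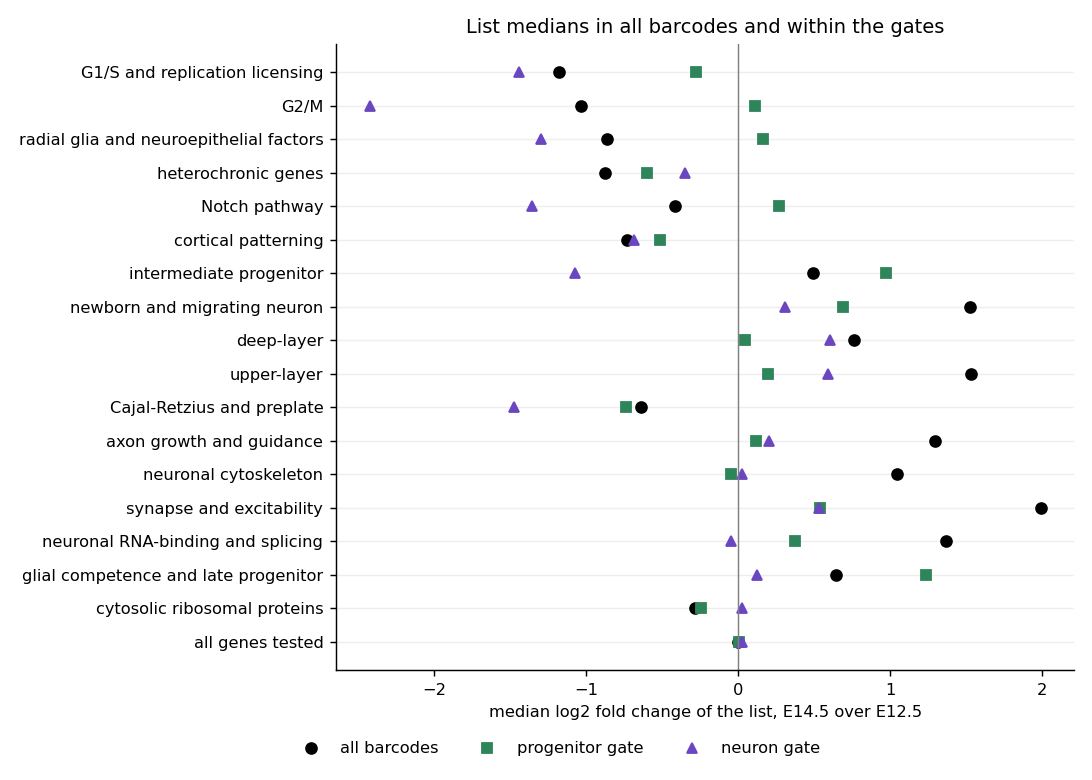
Median log2 fold change (E14.5 over E12.5) of 17 lists and of all genes tested, in all barcodes (black circles), the progenitor gate (green squares) and the neuron gate (purple triangles); gate genes are left out within the gates. The G2 and mitosis list lies at -1.03, 0.11 and -2.42, and the glial competence list at 0.65, 1.24 and 0.13.

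The later wild type libraries show where these levels went next, as values only. Hmga2 had means of 224 CPM at E12.5, 18.8 at E14.5, 13.7 at E16.0 and 2.45 at E17.5, and Crabp2 176, 9.81, 1.71 and 0.927 CPM. Lrrn1 had means of 24.2 and 25.4 CPM at the later stages after 16.9 CPM at E14.5, and every later library lay above every E14.5 library. Ccnd1 had 49.7 and 39.3 CPM after 37.1 CPM. Some genes were highest at E14.5 by mean: Cdh13 had 64.6 and 22.9 CPM at the later stages after 86.1 CPM, and Bcl11b 190 and 84.3 CPM after 306 CPM. Eomes had 189 CPM at E16.0 and 140 CPM at E17.5. Cux2, Pou3f2 and Zbtb20 were higher again at each later stage by mean, with 32.4 and 71.6 CPM, 268 and 441 CPM, and 286 and 388 CPM. Hbb-bh1, at 187 CPM at E12.5, had means of 0.422 and 0 CPM.

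**Figure D5:**
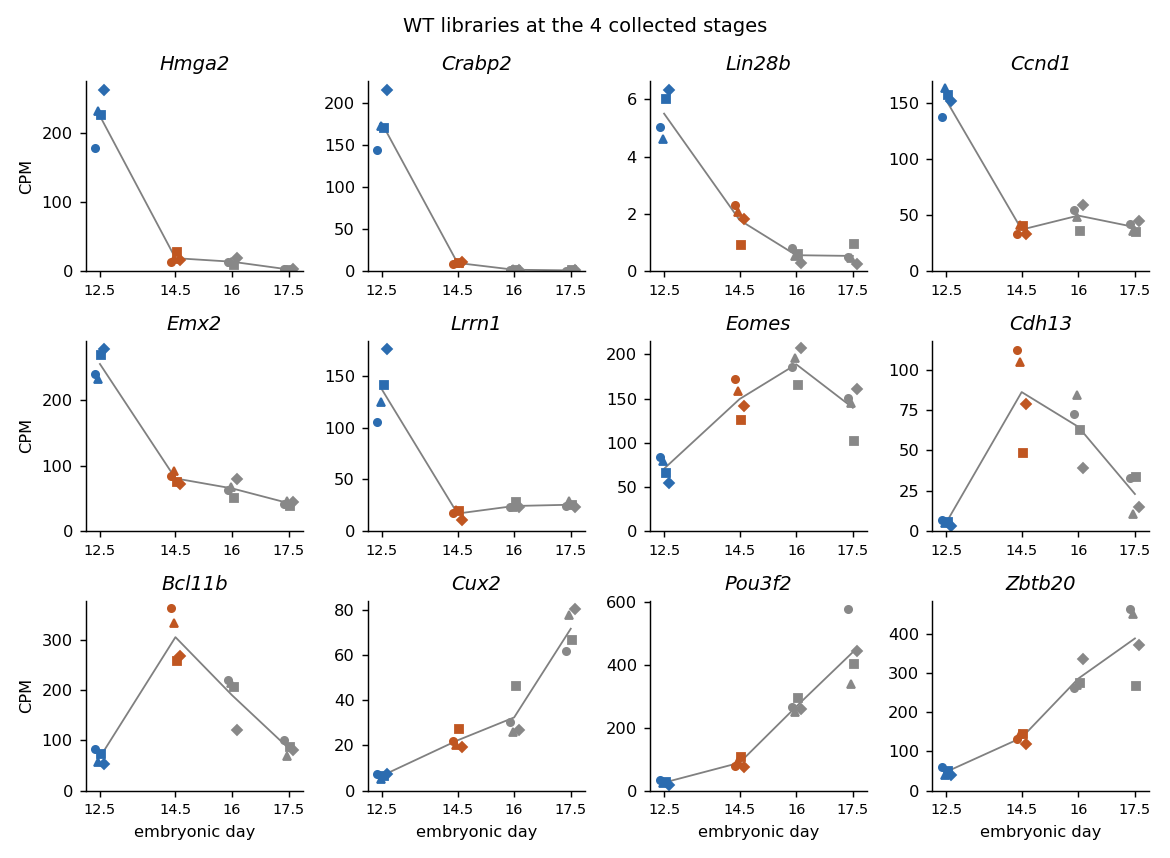
CPM of 12 genes in each wild type library at the 4 stages, with marker shapes for embryos as in the other plots and a line through the means of 4. Hmga2, Crabp2 and Lin28b are highest at E12.5, Cdh13 and Bcl11b at E14.5 (means 86.1 and 306 CPM), and Cux2, Pou3f2 and Zbtb20 at E17.5.

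The same stages in the Chd8 heterozygous littermates share no library with the wild type comparison. At each stage their description codes begin as the wild type codes do, so the overlap below cannot tell stage from code. In them 8173 of 14587 genes (56%) were called, 4407 higher and 3766 lower at E14.5. Of 14535 genes tested in both genotypes, 6896 were called in the same direction in both, which is 79.9% of the 8627 wild type calls and 84.6% of the 8153 heterozygous calls, and 2 were called in opposite directions. A test of the stage change by genotype called 0 of 15237 genes with edgeR (1234 at an unadjusted p below 0.05). With DESeq2 it called 0 of 24121 genes (1358 at an unadjusted p below 0.05). The number at an unadjusted p below 0.05 was 814 without wild type E12.5 M1 and 632 without heterozygous E12.5 F1. It was 2737 without heterozygous E12.5 M2, where 1 gene was called. None of these fits used the pairing of the genotypes, whose same-named embryos of a stage are matched by litter and sex. With a block for these pairs in edgeR, 3005 of 15237 genes were at an unadjusted p below 0.05 and 0 were called. A count of 0 calls does not show that the genotypes changed alike. Of the 102 named genes called in wild type, 100 had the same sign in the heterozygotes and 88 were called there too. Some lists gave other counts in heterozygotes: 9 of 24 interneuron genes were higher and 1 lower, against 16 and 4 in wild type, and 3 of 85 oxidative phosphorylation genes were higher and 36 lower, against 9 and 12. These differences between lists, and the part of depth in them, were not tested. At E12.5 the median UMIs per barcode were 6154, 10727, 4166.5 and 6136.5 in heterozygotes, against 8763.5 to 10677 in wild type. Hmga2 changed by -3.63 on the log2 scale in wild type and -3.45 in heterozygotes, Crabp2 by -4.21 and -4.65, Bcl11b by 2.14 and 2.23, and Chl1 by 5.74 and 6.46. Chd8 itself had means of 41.2 CPM at E12.5 and 44.2 CPM at E14.5 in wild type (log2 fold change 0.05, adjusted p = 0.64).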

How the data were processed

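UMI counts were measured by single-cell RNA sequencing in 8 wild type libraries. The authors deposited filtered gene-by-barcode matrices of raw UMI counts for 32285 genes; per the submitters' processing notes, STAR 2.7.9a, STARsolo, Cell Ranger and the mm10 build were used. Whether counting used strand is not given in the sources used here, so reads of overlapping genes (for example Sox5 and its antisense genes, Emx2 and Emx2os, Dlx1 and Dlx1as) cannot be told apart. Counts were summed per library over barcodes with at least 1000 UMIs and 500 genes, giving 22651028 to 66494678 UMIs per library. They were tested with edgeR 4.0.16 (TMM scaling, filterByExpr, robust quasi-likelihood fit, R 4.3.3), with Benjamini-Hochberg adjustment over all genes tested. DESeq2 1.42.0, other scalings, filters, thinning, a replicate block and leaving out each library were the alternatives; the fitting script was tested on simulated data. CPM are counts per 1000000 summed UMIs, without TMM scaling. Gate shares were compared by exact permutation tests, and the gates were set on 3000 thinned UMIs with a fixed seed. P-values measure the spread between embryos, and embryos of a stage may share litters. Positions are from GENCODE M21 (GRCm38), in which 99.85% of the genes were found, and promoter sequences from RefSeq (GRCm38.p6).

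Named genes were the 6 largest rises and falls (mean log2 CPM of at least 5, called, ranges not overlapping), the 4 largest gains and losses in CPM among called genes (mitochondrial genes left out), the 5 largest rises and falls in each gate under the same limits in the gate sums (gate genes left out), and the lead genes of 28 gene lists (30 lists with ribosomal and oxidative phosphorylation genes). Unnamed gene models were skipped. The libraries, lists and genes were chosen with earlier results of these data known.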

Additional observations from a re-analysis of the deposited data

Results flagged for a closer look

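Some named values stood apart from the other 3 libraries of their stage by Dixon's criterion at the 95% level. Of 250 groups of 4 libraries examined, 10 (4.0%) held such a value, and chance flags about 1 in 20 groups. At E12.5, M2 was the lowest for Vim (962.99 CPM) and Fezf2 (154.79 CPM) and the highest for Nrarp (70.42 CPM). M2 is also the only E12.5 wild type library whose description code begins with c15, so embryo and code cannot be told apart there. Also at E12.5, F2 was the lowest for Tbr1 (77.69 CPM) and Olig2 (0.40605 CPM) and the highest for Ttr (0.52636 CPM). At E14.5, M2 was the highest for the embryonic globins Hba-x (79.097 CPM) and Hbb-y (767.11 CPM). The E14.5 library F1 was the highest for Nfia (522.71 CPM) and had the smallest share of barcodes in neither gate (30.123%).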

How the results depend on the processing

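For the all-barcode comparison 20 alternatives were run, and each named gene was followed through those that tested it. Of 119 named genes tested, 103 kept their side of the threshold, 16 changed side in at least 1 alternative, and 0 calls changed direction. Direction was not compared where a gene was called neither in the main fit nor in the alternative. Genes of low level such as Lin28b did not enter the fit with the 10 CPM filter. The number of called genes was 7836 to 10180 when each library was left out in turn, with the highest value without E14.5 F1. It was 3271 to 5426 in the progenitor gate and 3158 to 4752 in the neuron gate. With genes kept only at 10 CPM or more in 4 libraries, 8440 genes were tested and 5315 were called, 2783 higher and 2532 lower, of which 740 and 389 changed at least 2-fold; fewer genes enter that fit. Under it 5 Cajal-Retzius and preplate genes were lower, 1 subplate gene higher, 5 glycolysis genes higher, 5 meningeal, 1 endothelial and 0 hem genes lower. A stricter gate gave 2379 calls in the neuron gate. Without thinning, the difference in the progenitor share was -6.0351 percentage points (exact permutation p = 0.08571); the cause was not tested. The genotype interaction gave 0 to 1 genes when each library was left out. A replicate block on the wild type comparison gave 8540 calls (4355 higher and 4185 lower). Embryos of the same name come from different litters at the 2 stages, and their deviations correlated at 0.358 for M1, 0.063 for M2, 0.172 for F1 and 0.202 for F2, so not every pair passed 0.1 and the names were not taken as pairs. Under the block, Notch1 (-0.337) and Hba-a1 (-1.16) were called lower and Dlx2 (1.36) higher. No kept barcode had over 10% mitochondrial UMIs, so that filter, 1 of the 20 alternatives, removed nothing and shows nothing. Stages rest on 4 embryos each, and a split of 3 against 4 libraries cannot go below an exact permutation p of 0.05714.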
